A study of Mus musculus with 6 samples.

Results

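Antigen-presenting cells carry surface proteins that tell a T cell whether to respond to the antigen it is shown. The transcripts of 9 such genes were followed here, namely Cd40, Cd80, Cd86, Icosl, Cd274, Pdcd1lg2, Vsir, Lgals9 and Cd276. They were taken by symbol from a count table of 22192 genes, and all 9 symbols had a row. The cells were RAW 264.7, a macrophage-like line that the labels trace to BALB/c mice, so 1 line stands for macrophages throughout. In 3 libraries the cells had received 200 µg/mL of ASPS-A1 for 24 h, a polysaccharide that the submitters fractionated as the acidic part of an Acanthopanax senticosus leaf extract. The other 3 libraries carry the label control, with no vehicle named, and nothing in the labels says whether the 3 libraries of a group came from separate cultures. P-values therefore measure the spread between these libraries, which may be technical. The titles number the treated libraries ASPS-A1, A2 and A3 while their treatment label is ASPS-A1 in each, and the treatment label was used.

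T cells need a second signal beside the antigen receptor. CD80 and CD86 give it through CD28 and are taken up by the brake CTLA-4, ICOS ligand engages ICOS, and CD40 is the receptor through which helper T cells license the presenting cell. PD-L1 (Cd274) and PD-L2 (Pdcd1lg2) engage the inhibitory receptor PD-1, VISTA (Vsir) restrains T cells and myeloid cells, and galectin-9 (Lgals9) is a secreted lectin that binds TIM-3. Cd40, Cd80, Cd86 and Icosl were read as activating and Cd274, Pdcd1lg2, Vsir and Lgals9 as inhibitory. For B7-H3 (Cd276) both activities have been reported, so it was kept apart.

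Library totals ran from 19989318 to 26137127 counts. Of 10 macrophage markers all were abundant enough to test, and their summed level was 2758 to 2909 CPM (counts scaled by library size and trimmed-mean factors) with ASPS-A1 against 1803 to 1816 CPM in control. In that list 8 rose, among them Itgam and Cd68, Aif1 fell, and Mertk stayed under 1 CPM. Over all genes tested, 32.4% rose and 33% fell by the same rule, so a call on a marker is common here. The T cell markers Cd3e, Cd3g and Cd2 and the B cell marker Blk had no count in any library. Of 8 T cell markers 2 were tested and rose, Cd5 and Lck, and the list summed to 100 to 105 CPM with ASPS-A1 against 62.6 to 65.8 CPM. Of 7 B cell markers only Cd79b was tested, with no call (sums of 31.9 to 38.4 against 30.3 to 32.6 CPM). Dendritic cell markers (2 of 7 tested, neither called) summed to 3.63 to 5.14 against 4.52 to 4.71 CPM, and the 6 fibroblast markers to under 1 CPM with none tested. The part of these markers in the results below was not tested. In bulk RNA, fewer cells making a transcript and less of it per cell cannot be told apart.

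Upstream sequence is shown first for 5 genes. Cd274 and Pdcd1lg2 were taken as neighbours of which 1 was measured in every library and 1 hardly at all. Lgals9 was taken as a gene that rose, and Cd80 and Vsir as genes that fell. Icosl, which also fell, is not shown. The reference table had entries for 7 of the 9 genes (RefSeq, GRCm38.p6). Each line gives bases 5′ to 3′ on the gene's strand, trimmed to the part before the RefSeq start that lies outside annotated exons (GENCODE M21). Capitals mark matches to any of 6 motifs, searched on both strands over the 250 bases before the start.
Cd274, chr19:29367391-29367437, + strand: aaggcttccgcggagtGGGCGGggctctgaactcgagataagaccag
Pdcd1lg2, chr19:29410669-29410918, + strand: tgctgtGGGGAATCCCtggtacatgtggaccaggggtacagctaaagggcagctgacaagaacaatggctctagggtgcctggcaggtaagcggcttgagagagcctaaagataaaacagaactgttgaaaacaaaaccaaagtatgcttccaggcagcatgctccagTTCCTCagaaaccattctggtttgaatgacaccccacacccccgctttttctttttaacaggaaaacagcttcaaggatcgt
Lgals9, chr11:78984947-78985174, - strand: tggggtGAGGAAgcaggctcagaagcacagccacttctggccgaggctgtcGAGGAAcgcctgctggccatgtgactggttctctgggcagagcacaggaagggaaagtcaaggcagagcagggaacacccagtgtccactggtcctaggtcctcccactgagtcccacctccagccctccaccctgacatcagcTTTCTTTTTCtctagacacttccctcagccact
Cd80, chr16:38458683-38458932, + strand: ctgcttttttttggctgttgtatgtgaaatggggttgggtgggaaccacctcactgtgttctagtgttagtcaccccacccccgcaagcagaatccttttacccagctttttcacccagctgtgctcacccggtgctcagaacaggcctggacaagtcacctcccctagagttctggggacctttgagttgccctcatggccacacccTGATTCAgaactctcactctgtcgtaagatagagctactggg
Vsir, chr10:60346601-60346850, + strand: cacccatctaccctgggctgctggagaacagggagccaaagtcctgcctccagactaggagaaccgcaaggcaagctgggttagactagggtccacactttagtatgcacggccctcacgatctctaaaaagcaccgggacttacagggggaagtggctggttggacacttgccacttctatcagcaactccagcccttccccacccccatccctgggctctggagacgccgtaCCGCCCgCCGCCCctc
The motifs were the NF-κB consensus, held by 3.90% of all 32851 windows of that length, the GAS element TTCNNNGAA (7.02%), the AP-1 site TGANTCA (6.75%), the interferon response core (2.98%), the PU.1 core GAGGAA (23.3%) and the GC box GGGCGG (32.7%). The GC box was added after the sequences were read, and no match shown here overlaps another.
The Cd274 stretch is what lies between Plgrkt, which runs the other way, and the RefSeq start of Cd274. It holds 1 GC box, and its full window held no match to the other 5 motifs. Pdcd1lg2 has the only NF-κB match among the 7 windows, and Lgals9 has an interferon response core and 2 PU.1 cores. Cd80 has an AP-1 site 42 to 36 bases before its RefSeq start, and Vsir has 2 GC boxes. The GENCODE span of Cd80 begins earlier, at 38455561, so the Cd80 stretch lies inside that gene span. A match is a run of letters and not a shown binding site.

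Of the 9 genes, 8 were abundant enough to test, and ASPS-A1 libraries had more of 4 and less of 3 (edgeR quasi-likelihood test, Benjamini-Hochberg adjusted over 11686 genes, threshold 0.05). The same rule called 65.3% of all genes tested, 32.4% higher and 33% lower, so a call is common in these libraries. The libraries of the 2 groups did not overlap for 7 of the 8, against 68.5% of all genes. Both directions appeared in both classes in this fit. Of the activating genes, Cd40 and Cd86 rose while Icosl and Cd80 fell, and of the inhibitory genes, Cd274 and Lgals9 rose while Vsir fell. With transcript length and GC content offset, Vsir and Lgals9 had no call, so the inhibitory class kept only the Cd274 rise. The median log2 fold change of the 8 was 0.098, against −0.021 over all genes tested. Sizes were uneven. Of the 8, only Cd274 and Cd40 were called with a change of at least 1.5-fold, against 27.3% of all genes. Both also rose by at least 2-fold, as did 3.69% of all genes.

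**Figure D1:**
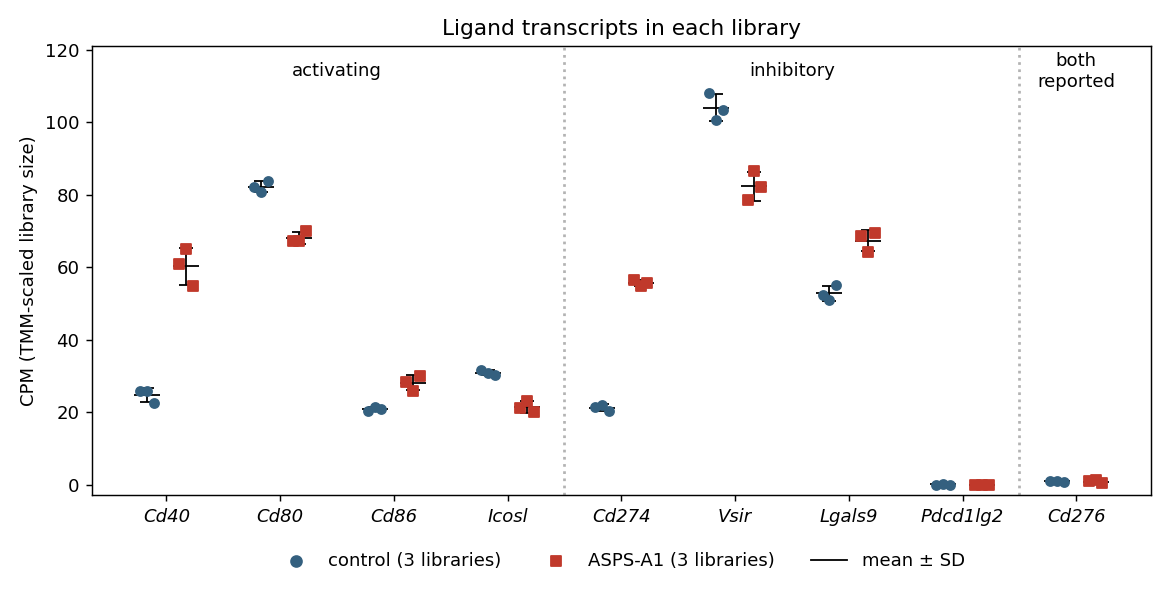
Level of each ligand transcript in CPM on a linear axis, with 1 point per library (circles control, squares ASPS-A1) and black bars for mean ± SD (n = 3 per group). The squares of Cd40, Cd86, Cd274 and Lgals9 lie above every control circle, those of Cd80, Icosl and Vsir lie below, and Pdcd1lg2 and Cd276 sit near 0.

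Among the activating genes, Cd40 changed most. Its level was 60.8, 65.0 and 54.9 CPM in the ASPS-A1 libraries and 25.9, 25.7 and 22.5 CPM in control. Every treated library was more than 2-fold above the control library closest to it. The log2 fold change was 1.29 ± 0.08 (SE), or 2.44-fold (edgeR adjusted p = 1.47e-19), and 94.9% of all genes tested had a smaller absolute change.

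The CD28 ligands moved in opposite directions. Cd80 stood at 67.1, 67.1 and 70.0 CPM with ASPS-A1 and at 82.0, 80.8 and 83.8 CPM in control, so its libraries were separated by a narrow gap. It fell by 0.27 ± 0.06 on the log2 scale (SE, edgeR adjusted p = 5.47e-05). Cd86 stood at 28.4, 25.8 and 30.0 CPM with ASPS-A1 against 20.2, 21.4 and 20.8 CPM, with no overlap either. It rose 1.35-fold, a log2 fold change of 0.43 ± 0.09 (SE, edgeR adjusted p = 2.43e-05). There were 0.412 ± 0.024 Cd86 counts per Cd80 count with ASPS-A1 and 0.253 ± 0.011 in control (SD, n = 3), a ratio that needs no library scaling. Both genes lie on chromosome 16, 1789479 bases apart (GRCm38), Cd86 at 36603869-36666081 and Cd80 at 38455561-38496335.

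Icosl, on chromosome 10 (78069302-78083913), had the largest fall of the set. It measured 21.1, 23.04 and 20.0 CPM with ASPS-A1 and 31.7, 30.7 and 30.3 CPM in control. All treated libraries were below all control libraries, by 1.45-fold on the fitted scale (log2 fold change −0.53 ± 0.08 SE, edgeR adjusted p = 3.57e-07). Counts of Cd40 per count of Icosl went from 0.800 ± 0.050 in control to 2.82 ± 0.069 with ASPS-A1.

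Cd274, which encodes PD-L1, showed the largest change of all 9 genes. Its level was 56.4, 54.8 and 55.6 CPM with ASPS-A1 and 21.3, 22.1 and 20.2 CPM in control, and the spread within each group was small beside the gap. It rose 2.62-fold (log2 fold change 1.39 ± 0.07 SE, edgeR adjusted p = 2.85e-21), more than 95.9% of all genes tested in absolute size. The gene spans 29367455-29388095 of chromosome 19, and 14.1% of its exon length overlaps an antisense RNA on the opposite strand. That RNA has no row of its own in the table and no source names the strand option used, so its reads cannot be told apart from Cd274 reads. Counts of Cd274 per count of Cd40 were 0.928 ± 0.085 with ASPS-A1 and 0.860 ± 0.037 in control and overlapped between groups.

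Pdcd1lg2, the gene for PD-L2, starts 22823 bases beyond the end of Cd274 on the same strand. Over the 3 ASPS-A1 libraries it had 0 counts, which allows up to 0.0481 CPM for counting error alone (3 counts over the group), and over the control libraries 1 count. It was not tested, and a change could not be detected at this depth. PD-L1 transcripts were thus measured in every library and PD-L2 transcripts in 1, at a single read.

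The other inhibitory ligands were abundant and moved by modest amounts. Vsir, on chromosome 10 (60346851-60372684), stood at 78.4, 86.4 and 82.0 CPM with ASPS-A1 and at 108, 101 and 103 CPM in control. All its treated libraries were below all control libraries, and it fell by 0.34 ± 0.06 on the log2 scale (SE, edgeR adjusted p = 7.95e-07). Lgals9, on chromosome 11 (78962974-78984946), stood at 68.5, 64.0 and 69.4 CPM against 52.2, 51.0 and 55.1 CPM. It rose 1.27-fold without overlap (log2 fold change 0.35 ± 0.06 SE, edgeR adjusted p = 3.74e-06). Log2 fold changes in the series ran lower for longer transcripts (Spearman −0.354 across genes, which are not replicates). Once length and GC content were offset together, Vsir had −0.096 (adjusted p = 0.0981, range over its alternatives 2.69e-10 to 0.0981) and Lgals9 had 0.087 (adjusted p = 0.207, range 2.54e-07 to 0.207).

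Cd276 was near the floor of detection. It had 21, 21 and 6 counts in the ASPS-A1 libraries and 24, 26 and 22 in control. The groups overlap, and the lowest library is ASPS-A1 replicate 3. The log2 fold change was −0.15, with a 95% interval of −0.98 to 0.67 (edgeR adjusted p = 0.764), and without that replicate it was 0.22 (adjusted p over all its alternatives 0.454 to 0.937). Of its exon length, 11.4% overlaps another transcript on the opposite strand.

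**Figure D2:**
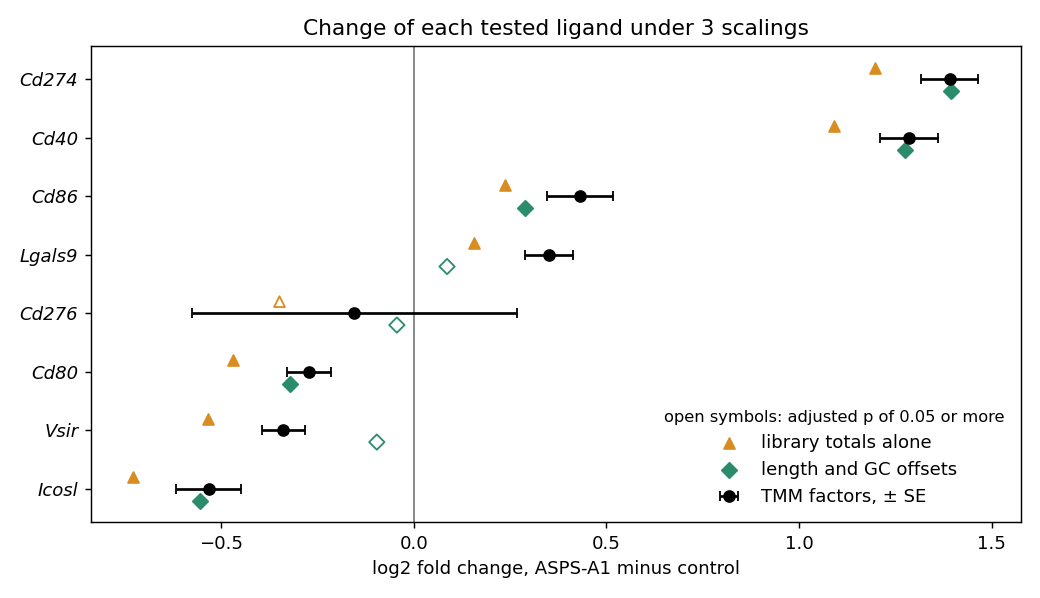
Log2 fold change (ASPS-A1 minus control) of the 8 tested ligands: black circles are the TMM-scaled values with bars for the SE, triangles use library totals alone and diamonds use length and GC offsets. Cd274 and Cd40 stay above 1 under all 3, the triangles sit lower throughout, and the diamonds of Vsir and Lgals9 are open, like those of Cd276, with an adjusted p above 0.05.

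Scaling by library totals moved all genes down, with a median log2 fold change of −0.22. All 7 calls held there, but Cd86 (0.24) and Lgals9 (0.16) then rose less and Cd80 (−0.47) and Vsir (−0.53) fell more.

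The levels of different genes were compared per kilobase of exon. The length used was the union of exons over all annotated transcripts of a gene (GENCODE M21). For Icosl this was 4620 bases where the longest transcript has 2814, and for Cd86 3661 against 2539. For Cd274 both were 3622. The order of genes, the sums and the shares per kilobase given below therefore hold for this choice of length. In control, Lgals9 was highest at 24.7 ± 0.987 CPM per kb (SD, n = 3), followed by Cd80 at 22.2 ± 0.402 and Vsir at 20.7 ± 0.748. A wide gap then separated Cd40 (7.26 ± 0.552), Icosl (6.68 ± 0.152), Cd274 (5.85 ± 0.253) and Cd86 (5.69 ± 0.175). Of these, Cd40 overlapped with Icosl and Cd274 with Cd86 in the range over libraries, and Cd276 was at 0.251 ± 0.033.
With ASPS-A1, Lgals9 stayed first at 31.5 ± 1.35 CPM per kb. Cd80 (18.4 ± 0.449), Cd40 (17.7 ± 1.49), Vsir (16.4 ± 0.802) and Cd274 (15.3 ± 0.226) followed, where Cd80 overlapped with Cd40 and Cd40 with Vsir. Cd40 and Cd274 had thus come up to near Cd80 and Vsir, from which a wide gap parted them in control. Cd86 (7.67 ± 0.581) and Icosl (4.62 ± 0.337) remained apart below them, and Cd276 was at 0.224 ± 0.121.

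**Figure D3:**
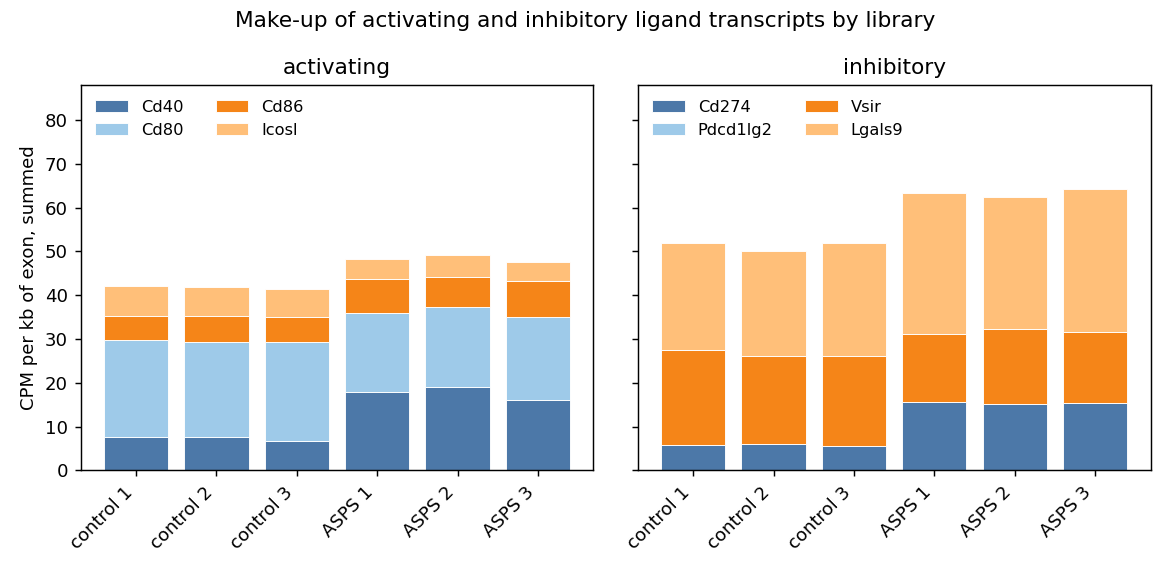
Summed CPM per kb of exon (TMM-scaled) in each of the 6 libraries, stacked by gene, for the 4 activating (left) and the 4 inhibitory genes (right), on a linear axis from 0. Activating sums are 41.5 to 42.1 in control and 47.5 to 49.2 with ASPS-A1, inhibitory sums 50.1 to 52.0 and 62.3 to 64.2, with the Cd40 and Cd274 segments grown and the Cd80, Icosl and Vsir segments smaller.

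Whether the class sums were higher with ASPS-A1 depended on the library scaling, while the balance between the classes, which needs no scaling, was nearly the same. With TMM factors, activating transcripts summed to 178 ± 3.08 CPM against 159 ± 1.12 in control, and inhibitory transcripts to 205 ± 1.86 against 178 ± 3.95 (SD, n = 3). With library totals alone, a comparison added after seeing the data, activating sums were 167, 167 and 164 CPM with ASPS-A1, all below the 171, 168 and 170 CPM of control. Inhibitory sums were then 192, 189 and 194 CPM against 195, 184 and 193 CPM, and the groups overlapped. Inhibitory genes held 53.4%, 53.1% and 54.2% of the counts of both classes with ASPS-A1 and 53.2%, 52.3% and 53.2% in control. These shares overlap, and each has an exact binomial 95% interval of about 1 percentage point either side, such as 52.3% to 54.5% for ASPS-A1 replicate 1 (counting error only). Divided by exon length, a choice made after seeing the data, the shares were 56.7%, 55.9% and 57.4% against 55.2%, 54.4% and 55.6% and no longer overlapped. Without Lgals9 the mean share on counts was 43.7% with ASPS-A1 and 44.1% in control, so the small difference turned around. No test was made of these sums, since the genes were chosen with results of these data known.
What differed clearly was the make-up within each class. On the per-kilobase scale, Cd40 made up 36.5% ± 2.46 of activating transcripts with ASPS-A1 and 17.3% ± 1.21 in control, while Cd80 made up 38.0% ± 1.54 and 53.1% ± 1.27. Icosl went from 16.0% ± 0.261 to 9.55% ± 0.526. In the inhibitory class, Cd274 made up 24.3% ± 0.359 with ASPS-A1 and 11.4% ± 0.717 in control, and Vsir 26.0% ± 1.52 and 40.4% ± 0.995. Lgals9 made up 49.8% ± 1.48 and 48.1% ± 1.30 on this scale, and 32.8% ± 1.39 and 29.7% ± 1.07 of inhibitory counts, where the groups did not overlap.

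The chromosomal neighbours of Cd274 did not move as a block. Plgrkt, which encodes a plasminogen receptor, starts 65 bases from Cd274 and runs the other way. It stood at 50.5, 53.9 and 55.1 CPM with ASPS-A1 and at 31.1, 29.7 and 29.8 CPM in control. This is a rise of 1.76-fold (log2 fold change 0.82 ± 0.07 SE, edgeR adjusted p = 5.29e-14), in the same direction as Cd274 and smaller. With length and GC offsets Plgrkt had 0.33 on the log2 scale, where Cd274 kept 1.39. The exons of Plgrkt share no position with another gene. Of 8 listed neighbours, 7 were tested, with 4 higher, 2 lower and 1 not past the threshold (median 0.16, against −0.021 over all genes). The shares over all genes tested were 32.4% higher and 33% lower. Jak2, the kinase that passes on interferon-γ signals, starts at −116 kb from the start of Cd274 and fell by 0.43 on the log2 scale (−0.27 with the offsets), from 80.3 to 59.7 CPM. Ric1 fell too (−0.34, or −0.13 with no call under length and GC offsets), and the endoplasmic reticulum peptidase gene Ermp1 rose (0.37, or 0.58 with the offsets). Insl6 rose (0.47) but had −0.053 with those offsets. With library totals alone, 2 neighbours were higher, and with the offsets 1 was lower.

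**Figure D4:**
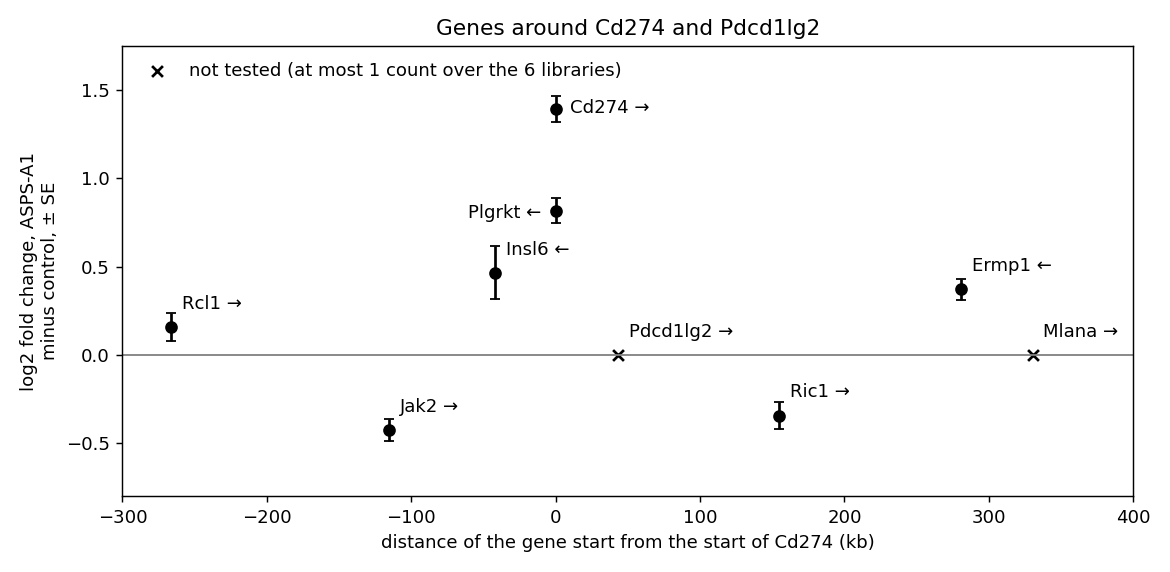
Log2 fold change (ASPS-A1 minus control, bars for the SE) against the distance of each gene start from the start of Cd274 in kb, with arrows for the direction of transcription; Uhrf2 lies beyond the plotted range. Plgrkt (0.82) and Cd274 (1.39) share the position 0 and are the highest points, while Jak2 and Ric1 lie below 0 and the crosses mark Pdcd1lg2 and Mlana, which were not tested.

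Other ligands that T cells meet on presenting cells moved both ways. Of 24 listed, 13 were tested, and 8 rose, 3 fell and 2 had no call (median 0.20), beside 32.4% of all genes that rose. With library totals alone 4 rose and 4 fell, and with length and GC offsets 5 rose and 3 fell. Tnfsf9, the ligand of the co-stimulatory receptor 4-1BB, stood at 140, 151 and 147 CPM with ASPS-A1 against 73.3, 67.9 and 76.9 CPM. It rose 2.01-fold (edgeR adjusted p = 7.81e-21) with no overlap, and 14.9% of its exon length is shared with another gene. The SLAM-family ligand Cd48 (0.89, or 0.45 with an adjusted p of 0.0563 under the offsets, range over its alternatives 7.47e-05 to 0.0563) and the "do not eat me" protein Cd47 (0.44) also rose. Tnfrsf14, which encodes HVEM (−0.90), Nectin2 (−0.40) and Pvr (−0.34), both ligands of TIGIT and CD226, fell. Tnfsf4, Cd70, Tnfsf14, Tnfsf15 and Tnfsf18 were below the filter.

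Of 14 listed receptors that pair with these ligands, 9 were too low to test, and Ctla4, Cd40lg, Btla, Cd226 and Cd96 averaged 0 CPM in both groups. Havcr2, which encodes the galectin-9 receptor TIM-3, measured 8.50, 7.01 and 9.75 CPM with ASPS-A1 against 24.6, 26.0 and 25.0 CPM. It fell 2.99-fold (log2 fold change −1.58 ± 0.11 SE, edgeR adjusted p = 2.89e-17) while its ligand Lgals9 was 1.27-fold higher. Rgmb, a binding partner of PD-L2, fell (−0.84), and Cd44, a surface protein to which galectin-9 can bind, rose (0.61), from 126 to 191 CPM. Tigit and Treml2 were not past the threshold, which leaves 1 risen and 2 fallen of 5 tested (median −0.17). Over all genes tested, 32.4% rose and 33% fell.

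Genes that act below CD40 moved both ways. Of 13 tested, 5 rose, 3 fell and 5 had no call (median 0.054), or 5 fell with library totals alone. Among all genes tested, 32.4% rose and 33% fell. Traf1, an adaptor that binds the CD40 tail with TRAF2, stood at 12.9, 14.7 and 11.9 CPM with ASPS-A1 against 4.52, 2.90 and 4.68 CPM. It rose 3.26-fold (edgeR adjusted p = 2.77e-13). The non-canonical NF-κB genes Nfkb2 (0.77, with 18.1% of its exon length shared) and Relb (0.47) rose. Their upstream kinase gene Map3k14, which encodes NIK, fell (−0.44), as did the adaptors Traf6 (−0.91) and Traf3 (−0.43, or −0.14 with no call under the offsets).

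The listed interferon and JAK-STAT genes, which include inhibitors of the pathway to Cd274 such as Socs3, moved both ways. Of 15 tested, 9 fell, 2 rose and 4 had no call (median −0.21), beside 33% of all genes that fell and 32.4% that rose. With length and GC offsets 6 fell and 4 rose. Tyk2 (−0.78, or −0.51 with the offsets), the receptor chain Ifngr1 (−0.68) and Stat2 (−0.65) fell, and 8.07% of the exon length of Tyk2 is shared. Socs3, an inhibitor of JAK signalling, stood at 119, 118 and 107 CPM with ASPS-A1 against 51.5, 50.3 and 53.4 CPM, a rise of 2.21-fold (edgeR adjusted p = 7.07e-22). Ifnar2 also rose (0.41). Irf1 fell (−0.40), and Ifngr2, Ifnar1, Irf9 and Socs1 had no call. Cd274 was higher in the libraries in which Ifngr1, Jak2 and Irf1 were lower and Socs3 and Ifnar2 higher. Whether these changes are linked was not tested.

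Regulators of the PD-L1 protein were split evenly. Of 12 tested, 5 rose, 5 fell and 2 had no call (median 0.065), beside 32.4% of all genes that rose and 33% that fell. Cops5, a deubiquitinating enzyme subunit that stabilises PD-L1 (0.69), Stub1, a ubiquitin ligase (0.60, with 42.3% of its exon length shared), and the deubiquitinase Otub1 (0.54) rose. Hip1r, which routes PD-L1 to lysosomes (−0.58, or −0.25 with the offsets), the stabilising membrane protein Cmtm4 (−0.40, or −0.14 with no call under the offsets) and the palmitoyltransferase Zdhhc9 (−0.35) fell. Of 4 genes listed for CD86 and class II molecules, Cd83, which shields CD86 from degradation, rose (0.64) and the ubiquitin ligase Marchf8 fell (−0.22). Marchf1 and Ciita were not past the threshold (median of the 4, −0.16). The number fallen was 2 with library totals alone, with upper-quartile factors and without ASPS-A1 replicate 1.

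**Figure D5:**
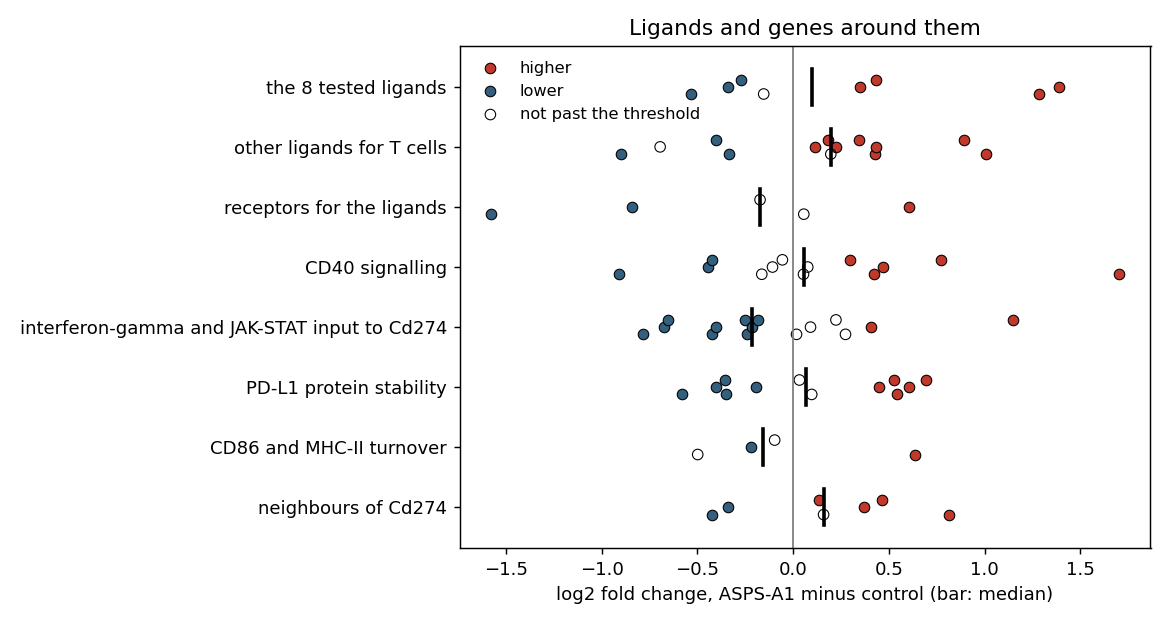
Log2 fold change (ASPS-A1 minus control) of the tested genes in each list, with 1 point per gene, filled where the adjusted p was under 0.05, and a bar at the median. The 8 ligands spread from −0.53 to 1.39 with a median of 0.098, and 9 of 15 points of the interferon and JAK-STAT list are filled and below 0.

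Genes whose profile over the 6 libraries was most like that of the ligands that changed at least 1.5-fold were found by Pearson correlation of log2 CPM. For Cd40 these were Myl6, Vti1b and Shmt2 (each r = 0.999 or more), and for Cd274 Psmc2, Spata24 and Farsb. Among 9401 candidate genes, 2132 had r over 0.95 with Cd40 and 2129 with Cd274. With 2 groups of 3 libraries this correlation mostly records the group difference, so it is given as a description only.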

How the data were processed

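Polyadenylated RNA of RAW 264.7 cells was sequenced in 6 libraries, 3 per group. The authors deposited a table of raw counts, whole numbers with a row per symbol and a column per library. The tools named, per the submitters' processing notes, were DESeq 1.38.3, HTSeq 0.9.1, HISAT2 2.1.0 and fastp 0.22.0. For build, annotation, strand option and multiply mapped reads the record is silent (not given in the sources used here), so gene positions are those of GENCODE M21 (GRCm38) matched by symbol, found for 95.8% of tested genes.

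The smallest library held 19989318 and the largest 26137127 counts. After filterByExpr (minimum count 10, minimum total 15) and TMM scaling, the robust quasi-likelihood model of edgeR 4.0.16 (R 4.3.3) was fitted to all 6 libraries. P-values are two-sided from glmQLFTest, adjusted over all 11686 genes at a threshold of 0.05. The SE is the absolute log2 fold change over the square root of F, and the 95% interval uses the normal quantile. The genes, their classes and the lists around them were chosen with earlier results of these data known.

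Named were all 9 genes, per list and direction up to 3 called genes with at least 1 CPM, and per ligand changed 1.5-fold or more the 3 most similar profiles among genes with at least 5 CPM (prior count 2). Genes named beyond that rule (Irf1, untested genes and those without a call) were chosen after their values were seen. Alternatives were other scalings, DESeq2 1.42.0, limma-voom (limma 3.58.1), other filters, a block for the library number, thinning, no robust fit, lowess offsets (span 0.3) for transcript length and GC content, and leaving out each library. No deposited column was left out, and single values of some listed genes are not reported here.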

Additional observations from a re-analysis of the deposited data

How the results depend on the processing

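Of the 7 ligands called, Cd40, Cd80, Cd86, Icosl and Cd274 kept direction and call under all 17 alternatives run. Vsir (−0.096) and Lgals9 (0.087) lost the call with length and GC offsets only. Cd276, never called, had 0.22 without ASPS-A1 replicate 3, and from −0.45 to 0.22 over the 6 fits that left out 1 library. The inhibitory share moved to 43.7% and 44.1% (ASPS-A1, control) without Lgals9 and to 56.7% and 55.1% per exon length. With library totals alone, the difference of the summed CPM (ASPS-A1 minus control) went from 19.1 to −3.66 for activating and from 27.2 to 1.245 for inhibitory genes. Insl6 turned to −0.053 with the offsets, and the causes of these moves were not tested. The numbers of genes higher with ASPS-A1 and genes lower with ASPS-A1 were 3783 and 3852, or 2529 and 5454 with library totals alone. Same-numbered libraries showed no shared deviation (correlations −0.0138, 0.0071 and 0.0040), which cannot show whether they were cultured together. With a replicate block the numbers of genes higher and lower were 3746 and 3807, with 4 ligands higher and 3 lower as without it. Depth limits Pdcd1lg2 and Cd276.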
